A study of Mus musculus with 21 samples.

Results

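DNase I hypersensitive sites (DHS) that were called in all-lymphoid progenitors (ALP) and in neither later stage numbered 11601, out of 102313 DHS regions of the 3 stages and 65379 regions with an ALP peak (17.7%, 95% interval 17.45 to 18.04). They were chosen by merging the ALP, EILP and ILCP peak lists wherever peaks shared at least 1 bp, on chromosomes 1 to 19 and X of mm9. A member held an ALP peak and no EILP or ILCP peak, so the presence of peaks in all 3 lists selected the set. Every member held 1 ALP peak. The intervals given throughout are exact 95% binomial intervals and cover the counting of regions only.

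A DHS is a stretch of chromatin, typically a promoter, enhancer or insulator, that is open enough for DNase I to cut its DNA. ALP are lymphoid progenitors of the bone marrow that can still give rise to B cells, T cells and innate lymphoid cells. The early innate lymphoid progenitor, or EILP, and then the innate lymphoid cell precursor, or ILCP, are later steps towards the innate lymphoid lineages, which lack rearranged antigen receptors. TCF1, the HMG-box factor encoded by Tcf7, is switched on in EILP and is needed for early innate lymphoid development. A DHS of ALP alone is thus a site found open in the multipotent stage and not called in EILP or ILCP.

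All cells came from bone marrow of C57BL/6 mice. ALP were sorted as Lin- Kit+ 2B4+ a4b7- Flt3high IL-7Ra+ and carried the genotype label Tcf7EGFP/+. EILP were sorted as Lin- Kit+ 2B4+ a4b7+ Tcf7+ Thy1- with the label Tcf7EGFPnull/+, although their source name calls them wild type. ILCP shared the Lin-, Kit+, 2B4+, a4b7+ and Tcf7+ gates of EILP, were Thy1+ and IL-7Ra+, and had the label Tcf7EGFP/+. The labels of all 3 stages thus name an EGFP allele of Tcf7, and in any comparison with EILP the stage and the genotype label cannot be told apart. Tcf7 was part of the gates of EILP and ILCP but not of ALP. Each stage had 3 DNase-seq libraries of 300 cells, digested with 0.3 units of DNase I for 5 minutes, whose tags were pooled before peaks were called. With 1 list per stage there is no spread between libraries, no test of a difference, and the sorted identities were not checked against marker genes here. TCF1 binding was mapped in EILP of the label Tcf7EGFPnull/+ by CUT&RUN, where a nuclease tethered to the antibody cuts the DNA beside the bound protein. It had 6 TCF1 and 4 IgG libraries of 500 cells, some of them technical repeats. Another 2 libraries are titled TCF1 but listed with the IgG track, and the file headers count them in the pooled control. The depth was 12420429 tags (ALP), 11236009 (EILP), 12681410 (ILCP) and 2418839 (TCF1), with 2919489 in the TCF1 control.

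The DHS called in ALP alone were mostly weak ALP sites. Their peak height (pileup, the number of extended tags over the summit) had a median of 9, with the middle 50% between 7 and 11, a 95th percentile of 17 and a highest value of 41. ALP regions with a peak at a later stage had a median of 15 and a highest value of 179. The order followed the number of stages: the median ALP pileup was 9 in DHS of ALP alone, 10 in those shared with ILCP, 12 in those shared with EILP and 17 in those called in all 3 stages. The fold enrichment over the local background, as the authors deposited it, had a median of 5.08 in DHS of ALP alone, against 7.69 in the other ALP regions. The peaks were also shorter, with a median of 145 bp against 209 bp. In all, the members covered 1.84 Mb and held 10.2% of the summed ALP pileup. These values come from a list that the choice of members used, and they are given as a description.

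**Figure D1:**
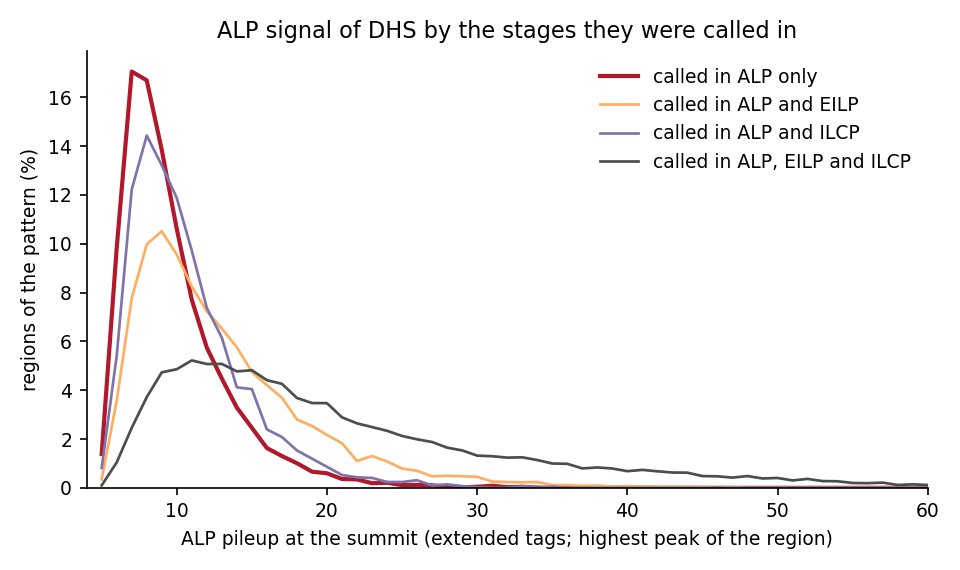
Share of regions of each pattern (y, percent) at each ALP pileup (x, extended tags at the summit of the highest peak, shown to 60 tags). The curve of DHS called in ALP alone lies furthest to the left, with a median of 9 tags, and the curve of DHS called in all 3 stages is the broadest, with a median of 17 tags.

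The local background at the members, the number of tags the peak caller allowed for by chance, had a median of 0.8 tags against 1.05 in the other ALP regions. Sites called in EILP alone and in ILCP alone had like values in their own lists: 9871 EILP-only DHS had a median pileup of 8, a median fold enrichment of 5.00 and a median length of 136 bp, and 17583 ILCP-only DHS had 9 tags, 5.23 and 151 bp. Weak signal and short peaks were thus shared by the single-stage sites of all 3 lists.

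The members made up 40.9% (40.1 to 41.6) of the ALP regions of 5 to 9 tags, 22.4% of those of 10 to 12 tags, 11.7% of those of 13 to 16 tags and 4.53% of those of 17 to 23 tags. Among the 13041 ALP regions of 24 to 179 tags, 100 were called in ALP alone, or 0.767% (0.624 to 0.932). The members' share was lower in each higher class of signal. Regions shared with EILP alone held between 4.61% and 19.6% of each class, and regions shared with ILCP alone between 0.399% and 11.55%.

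At equal pileup the 3 lists differed in how many regions stood alone. At 9 tags, 31.7% (30.4 to 33.0) of ALP regions were called in ALP alone, against 26.3% (25.2 to 27.5) of EILP regions called in EILP alone and 44.7% of ILCP regions called in ILCP alone. At 20 tags these shares were 4.06% (3.17 to 5.11) for ALP, 0.993% (0.568 to 1.61) for EILP and 5.66% for ILCP. At both pileups the ALP share lay between the other 2. Over whole lists, 17.7% of ALP regions, 14.3% of EILP regions and 24.7% of ILCP regions stood alone. The lists differ in depth, so a pileup of 9 tags is not the same share of the tags in each.

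**Figure D2:**
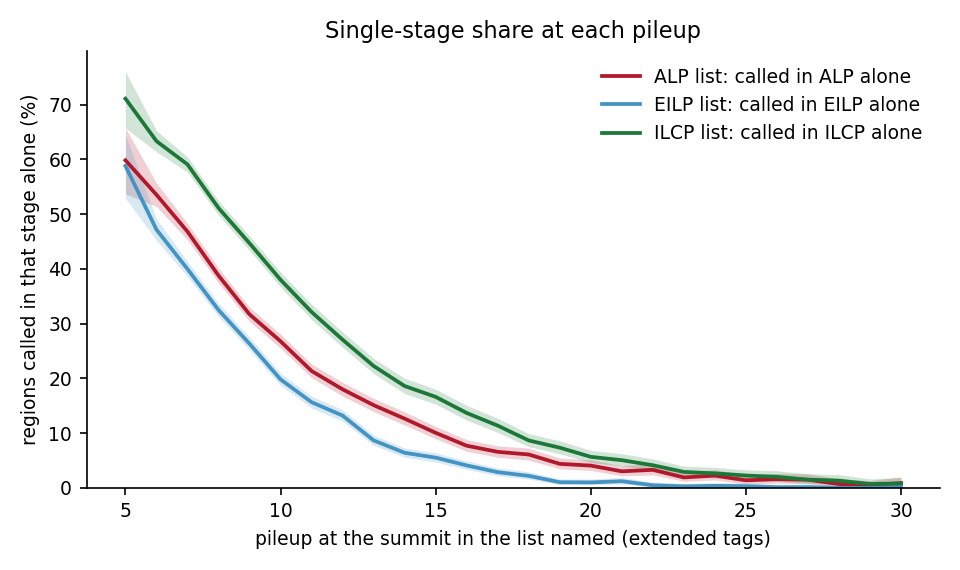
Share of regions called in that stage alone (y, percent) at each pileup (x, extended tags at the summit, 5 to 30) in the ALP, EILP and ILCP lists; bands are exact 95% intervals for counting error. All 3 curves fall with pileup, and at 9 tags they pass through 31.7% for ALP, 26.3% for EILP and 44.7% for ILCP.

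How much tag density a site needed to be called at a later stage could be worked out from the lists. The deposited −log10 of the p-value was matched by a Poisson probability of exceeding the pileup at the local background, with a largest difference of 0.00018 over the 3 lists. The lowest −log10 p was 3.53 in ALP, 3.52 in EILP and 3.49 in ILCP. At the lowest background, 5 tags were needed for a call in each list. At the background of each member, scaled to the depth of the later list, the needed pileup was 5 at the lowest and reached 8 in EILP and 9 in ILCP at the 95th percentile.

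Most members were close to that limit. Their ALP pileup, scaled to the depth of EILP or ILCP, was 1.45 times the needed pileup at the median (the lower of the 2 ratios), against 2.35 times in the other ALP regions. In 191 members (1.65%) the same tag density would have stayed under the needed pileup in at least 1 later list. In 1662 members (14.3%, 13.7 to 15.0) the lower 95% Poisson limit of the ALP pileup still lay at or above the needed pileup in both lists, against 63.6% of the other ALP regions. The scaled pileup was at least 2 times the needed one in 1386 members (11.95%), against 60.3% of the other ALP regions. It was at least 3 times the needed one in 184 members (1.59%). For the members outside the 1662, a later site of the same tag density could have missed the call within counting error of the ALP pileup. Counting error of the later pileup was left out, so the 1662 members are not clear of it. The calculation assumes the same background at the later stages, scaled to depth, and leaves out the shortest peak length that the caller accepts.

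At the weak edge of the set, 207 members (1.78%) had a −log10 q under 2. The 5 members of lowest −log10 q, between 1.31 and 1.34, had 5 to 7 tags, and 4 of them lay within 1 kb of peaks of both EILP and ILCP. On the other side, 69 ALP regions were kept out only by later peaks with a −log10 q under 2. The nearest of these, chr2:91789050-91789339, had 18 ALP tags and was kept out by an EILP peak of 7 tags with a −log10 q of 1.34. The next, chr10:19130669-19130874, had 8 ALP tags and an ILCP peak of 5 tags with a −log10 q of 1.35.

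At the strong end, 273 members (2.35%) had 20 tags or more and 29 (0.25%) had 30 or more. Over all ALP regions the 75th percentile of the pileup was 21 tags, so such heights were far rarer among members. The 10 highest members by pileup and the 10 highest by fold enrichment were 15 different regions, with 5 in both rankings. They had 31 to 41 tags, fold enrichments of 7.47 to 16.3 and scaled pileups of 2.86 to 4.91 times the needed one. They were 263 to 507 bp wide. None overlapped a TCF1 peak, beside 0.750% of all members, and 2 lay within 1 kb of a later peak, beside 27.8% of all members. The distance of the 15 to the nearest later peak ran from 398 to 22112 bp, with a median of 6221 bp.

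The highest pileup, 41 tags with a fold enrichment of 11.8, was at chr4:62416373-62416879. An ILCP peak of 16 tags lay 819 bp away and an EILP peak of 16 tags 859 bp away. The second, chr5:118926602-118927002, had 39 tags and a fold enrichment of 9.66, with an EILP peak of 33 tags at 1114 bp and an ILCP peak of 37 tags at 1111 bp. Both of these strong ALP sites thus stood beside sites that were open later.

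The third, chr12:114641047-114641400, had 38 tags, a fold enrichment of 15.8 and the highest ratio to the needed pileup, 4.91. Its nearest later peak was 22112 bp away, the longest distance among the 15. The fourth, chr5:36720751-36721134, also had 38 tags, but in a high background of 4.22 tags that left a fold enrichment of 7.47. It lay 398 bp from an EILP peak of 12 tags and 343 bp from a TCF1 peak, the closest TCF1 peak to any of the 15. The highest fold enrichment of all members, 16.3 at 32 tags, was at chr7:17602416-17602690, with later peaks 7411 bp away in ILCP and 7533 bp away in EILP.

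The other 10 of these regions had 31 to 36 tags. They were chr5:107441096-107441358 with 36 tags, chr7:106508579-106508947 with 34 tags, and 4 regions of 33 tags at chr10:122522220-122522690, chr17:31110281-31110726, chr14:48556840-48557242 and chr2:178292715-178293040. By fold enrichment they were joined by chr13:43610325-43610744 with 32 tags and by 3 regions of 31 tags at chr16:19884264-19884599, chr17:30661348-30661619 and chr17:50902811-50903165. Chromosome 17 held 3 of the 15, beside 534 of all 11601 members, and chromosome 5 held 3 as well, beside 737. The widest members were less strong: chr15:84103097-84103811, of 715 bp, had 14 tags, chr3:65123306-65123855, of 550 bp, had 12, and chr9:57840663-57841210, of 548 bp, had 18. Genes at these positions were not assigned, since no annotation of mm9 was used here.

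Many members lay close to chromatin that was open later. The distance from a member to the nearest EILP or ILCP peak had a median of 3203 bp, with the middle 50% between 827 and 9258 bp. Within 1 kb lay 27.8% of members (27.0 to 28.6), within 5 kb 60.6% and within 20 kb 88.4%. For the EILP-only DHS the same distance to peaks of the other stages had a median of 3083 bp with 29.1% within 1 kb, and for the ILCP-only DHS 4730 bp with 23.5%. The sites of ALP alone were therefore placed much like those of EILP alone, and nearer to other open chromatin than those of ILCP alone. The ILCP-only set was measured against the ALP and EILP lists, so the 3 distances refer to different lists.

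**Figure D3:**
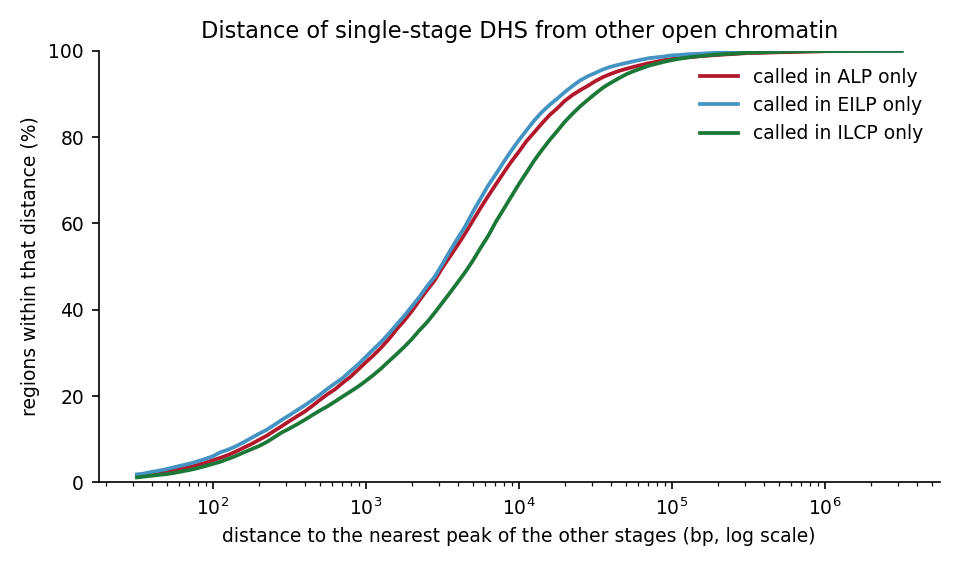
Share of single-stage DHS (y, percent) within a given edge-to-edge distance (x, bp on a log scale) of the nearest peak of the other stages. The ALP-only and EILP-only curves nearly coincide, with medians of 3203 and 3083 bp, and the ILCP-only curve lies to the right, with a median of 4730 bp.

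Of the 3227 members within 1 kb of a later peak, 60.8% had a peak of both later stages there, 20.9% of EILP alone and 18.3% of ILCP alone. Members near a later peak and members beyond 1 kb had the same median pileup, 9 tags. The near members had a higher local background, 1.1 tags at the median against 0.72, and a lower fold enrichment, 4.81 against 5.26. So the sites beside later DHS were not taller at the median. The local background is taken over a window of 10 kb, which also holds the ALP tags of neighbouring sites. How much of the difference in background and fold enrichment comes from such tags was not tested.

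The members farthest from later chromatin formed a small group on chromosome 7. The 3 farthest, between 93469905 and 93521448, lay 1541548 to 1592992 bp from the nearest later peak and had 6 to 8 tags. They belong to a run of 6 neighbouring ALP regions, from 93469905 to 94939431, that were all called in ALP alone, with no region of any later pattern inside its 1469527 bp. All 6 were weak, at 6 to 8 tags. The other run of 6 was compact, 70261 bp at chr19:47735087-47805347, with 8 to 17 tags and 5 regions called only at later stages inside. Another 23 runs held 5 members each, the most compact of them at chr5:140370151-140394634. Of all members, 7476 stood in runs of 1 and 35.6% in runs of 2 or more. These runs were picked for their length, and were not set against the number that the members' 17.7% share of ALP regions alone would give.

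Along chromosomes the members were only a little clustered. The nearest ALP region of a member was itself called in ALP alone in 20.5% of members (19.8 to 21.2), against 17.55% (17.2 to 17.9) for the other ALP regions and a background of 18.1% over all ALP regions. Within classes of ALP pileup the 2 shares came closer. At 5 to 9 tags the share was 22.4% (21.36 to 23.35) for members and 20.6% (19.84 to 21.44) for the others. In each of the 5 classes the intervals overlapped. By distance to the nearest ALP region, the share was 20.65% (19.12 to 22.23) for members and 18.84% (18.12 to 19.57) for the others up to 1 kb, and 17.73% for members and 17.93% for the others at 1 to 5 kb. Over 5 kb it was 22.1% (20.99 to 23.17) for members and 16.8% (16.34 to 17.24) for the others, without a split by pileup. The nearest region of any pattern was one called in all 3 stages for 37.3% of members, close to the 39.0% of such regions in the whole set.

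By chromosome, the members' share of ALP regions ran from 15.0% (14.0 to 16.1) on chromosome 11 to 19.9% (18.5 to 21.2) on chromosome 10. Signal also differed between chromosomes: the median pileup of ALP regions was 15 on chromosome 11, 14 on chromosome 10 and 11 on X, where 19.5% were members. With the genome-wide share of each pileup class, chromosome 10 would hold 620 members and held 689, a ratio of 1.11. Chromosome 11 would hold 763 and held 713, a ratio of 0.934. X held 240, against 273 at those shares, the lowest ratio, 0.88.

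**Figure D4:**
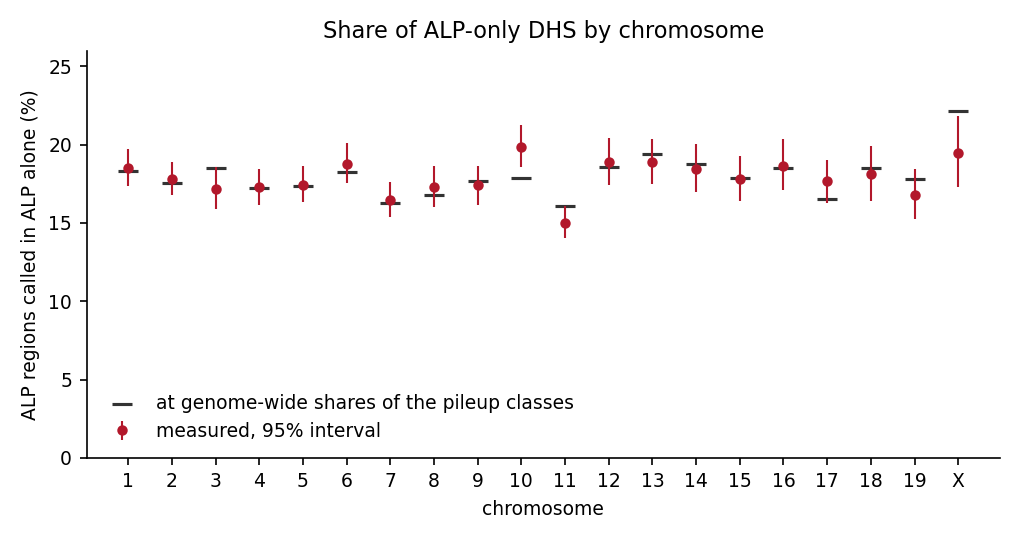
Share of ALP regions called in ALP alone (y, percent) by chromosome (x); points with bars are the measured share and its exact 95% interval, and dashes are the share each chromosome would have if every pileup class had its genome-wide share. Chromosome 10 is the highest at 19.9%, above its dash, and chromosome 11 the lowest at 15.0%, below its dash.

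In windows of 1 Mb the members were spread widely, with 1997 of 2268 windows that held an ALP region holding at least 1 member, and a median of 4. The window of chromosome 14 from 77000000 to 77999999 held 23 members among 59 ALP regions, where the genome-wide class shares would give 12.9, a ratio of 1.78. Its members had 6 to 20 tags, and 23 other regions there were called in all 3 stages. The window of chromosome 13 from 112000000 to 112999999 held 21 members of 64 ALP regions, a ratio of 1.53. The other 3 of the 5 fullest windows, on chromosomes 2, 10 and 11, held 90 to 96 ALP regions and had ratios of 1.25 to 1.41. All 5 were picked for their number of members, so a high ratio is a description of that choice.

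TCF1 peaks of EILP were rare in these sites. This was the one readout that the choice of members did not use. A TCF1 peak overlapped 87 members, or 0.750% (0.601 to 0.924), beside a background of 4.16% over all regions of the 3 lists. The share was 1.04% (0.853 to 1.26) in EILP-only DHS, 1.34% (1.17 to 1.52) in ILCP-only DHS, 1.41% in those of ALP and ILCP and 1.83% in those of ALP and EILP. It reached 5.05% in DHS of EILP and ILCP and 7.82% (7.56 to 8.09) in those of all 3 stages. The members had the lowest share of the 7 patterns, with an interval that overlapped that of the EILP-only DHS and no other. TCF1 was measured in EILP, where no DHS was called at these sites, and its binding in ALP was not analysed here.

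The low share was also seen within classes of ALP pileup against DHS of all 3 stages. Signal was not equal within a class: the highest ran from 24 to 179 tags, and no member had more than 41. At 5 to 9 tags the TCF1 share was 0.440% (0.297 to 0.627) in members and 3.06% (2.59 to 3.59) in DHS of all 3 stages. At 10 to 12 tags it was 0.861% in members and 3.015% in DHS of all 3 stages, and at 13 to 16 tags it was 1.82% in members and 4.67% in DHS of all 3 stages. At 17 to 23 tags it was 1.54% (0.669 to 3.02) in members and 6.75% in DHS of all 3 stages. Of the 100 strongest members, at 24 tags or more, 0 had a TCF1 peak, which allows a share of up to 3.62% by the exact interval, against 14.8% (14.2 to 15.4) of DHS of all 3 stages. Against DHS of ALP and EILP the gap was clear at 5 to 9 tags, where those held 1.44% (1.05 to 1.92), and from 10 tags upwards the intervals overlapped. Against DHS of ALP and ILCP, the pattern closest in ALP pileup, the intervals overlapped in all 5 classes: at 5 to 9 tags the share was 0.440% in members and 0.727% (0.398 to 1.22) in DHS of ALP and ILCP. At 13 to 16 tags it was 1.82% in members and 1.58% in DHS of ALP and ILCP, so the members were not the lowest pattern in every class.

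**Figure D5:**
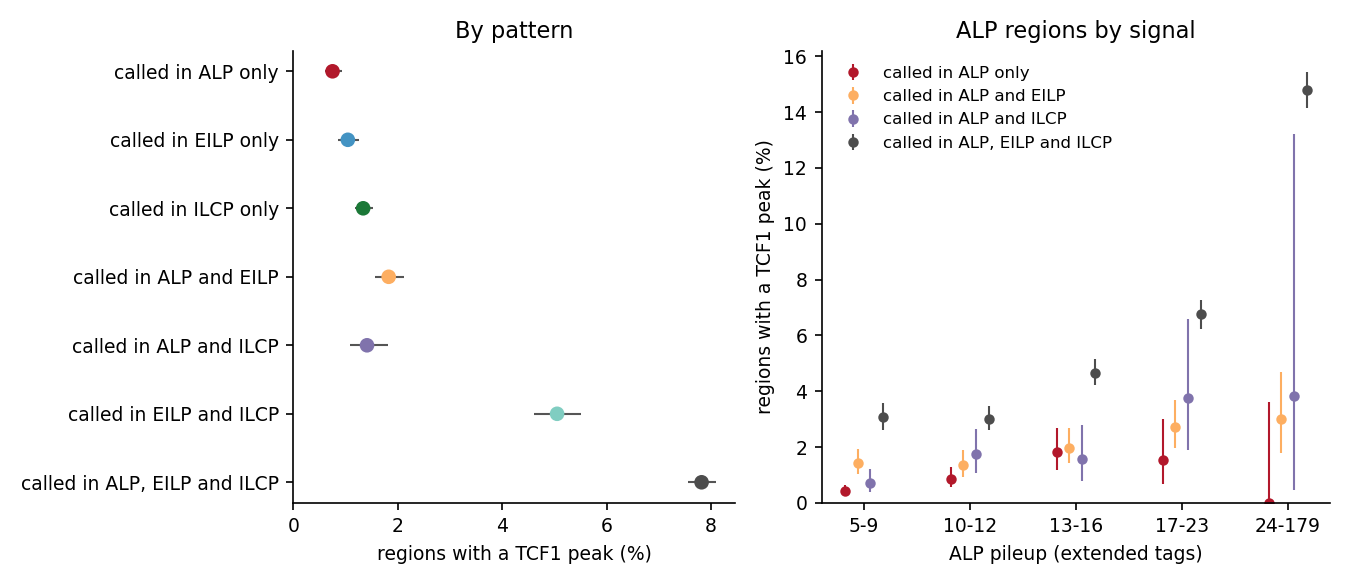
Share of regions overlapped by a TCF1 peak of EILP (percent), on the left for the 7 patterns and on the right for the 4 patterns with an ALP peak by ALP pileup class (x, extended tags); bars are exact 95% intervals for counting error. DHS called in ALP alone have the lowest share on the left, 0.750%, and in every class on the right they lie below DHS called in all 3 stages.

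The members also came lowest in a fixed window, which leaves out their short length and the room that a longer region gives an overlap. A TCF1 summit within 250 bp of the summit was present in 0.991% (0.819 to 1.19) of members, against 1.43% (1.204 to 1.68) of EILP-only DHS, 1.69% of ILCP-only DHS, 2.09% of DHS of ALP and EILP, 1.63% of those of ALP and ILCP and 7.65% of those of all 3 stages. Their interval lay below those of the other 5 patterns measured in this way, only narrowly for EILP-only DHS. These shares were not split by pileup. By overlap at any base in place of this window, members close to later chromatin had a TCF1 peak more often. Of those within 1 kb of a later peak 1.24% (0.887 to 1.68) had one, against 0.561% (0.413 to 0.746) of those farther away. An overlapping TCF1 peak can have its summit outside the member, and this split was not repeated with the summit inside. Beyond 20 kb, 2 of 1346 members had one.

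The 87 members with a TCF1 peak had a median ALP pileup of 11 tags, against 9 in the 11514 without. Their median fold enrichment was 4.89, against 5.08 in those without. Their median width was 167 bp, against 145 bp in those without, and 46.0% lay within 1 kb of a later peak, against 27.7% of those without. The TCF1 peaks in them had a median of 5 tags and a highest pileup of 10, against a median of 6 and a highest of 43 in DHS of all 3 stages. The strongest was at chr5:91360510-91360728, where the ALP peak had 8 tags and the TCF1 peak 10 tags with a fold enrichment of 8.26. Next came chr15:100496792-100497006, with 15 ALP tags, and chr15:101078589-101078749, with 12 ALP tags, each with a TCF1 peak of 7 tags and a fold enrichment of 6.86. The regions chr2:165826341-165826526 and chr8:114143957-114144130 followed, each with 10 ALP tags, 6 TCF1 tags and a TCF1 fold enrichment of 6.20, a value shared by 5 further members. The TCF1 list is shallow, at 2418839 tags, so a weak TCF1 site could have gone uncalled at any of these regions.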

How the data were processed

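DNase-seq of ALP, EILP and ILCP measured open chromatin, and CUT&RUN of EILP measured TCF1 binding. Per the file headers, the authors called each of the 4 peak lists on 1 pooled tag file with MACS 2.1.1.20160309, a q-value limit of 0.05, at most 1 tag at each position and tags extended to 100 bp. The submitters' processing notes name mm9 as the genome build, and the aligner is not given in the sources used here. The deposited pileup is the signal at the summit, in extended tags. The deposited fold enrichment is the ratio of pileup plus 1 to local background plus 1, from which the background was worked out. The −log10 p- and q-values are the authors' own. Strength was ranked within a list. Pileups of different lists were set side by side unscaled, as a description, and the tags needed for a call were worked out from pileups scaled by the tag totals. No column of per-sample values was set aside.

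DHS lists were merged at 1 bp overlap (Python 3.11.15, numpy 2.4.6, pandas 2.3.3, scipy 1.17.1), and each region took its highest peak. The 5 pileup classes are quintiles of ALP regions with ties kept together. Shares have exact Clopper-Pearson 95% intervals. Reads without molecular identifiers are not independent molecules, so intervals cover counting error only. The functions were tested on simulated lists. The members, lists and settings were chosen with earlier results of these data known. Named regions are the 10 highest by pileup and by fold enrichment, the widest 3, the 5 weakest, the 5 nearest outside, the 3 farthest from later peaks, the longest runs, the 5 fullest windows and the 5 with the strongest TCF1 peak, and some of these are given by their range. Promoter shares, sequence motifs, gene lists and printed sequences need mm9 and were not run. Alternatives covered the unit, the overlap rule, the distance, the thresholds, the number of peaks and the chromosomes.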

Additional observations from a re-analysis of the deposited data

Results flagged for a closer look

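The ALP list also holds peaks outside the chromosomes used above. On chromosome Y, 7 of 42 ALP regions had no EILP or ILCP peak, and on the mitochondrial chromosome M 0 of 8. The 7 regions were picked out only because they lie on a chromosome that the choice of members leaves out, and they enter no count above.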

How the results depend on the processing

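Of 44 alternative values for the number of DHS called in ALP alone, their share of ALP regions, median pileup, distance, clustering and TCF1 share, 32 stayed within 1.5 times the main number or the main interval and 12 did not. Counting a site as absent only with no later peak within 500 bp gave a share of 14.36% and 10.8% within 1 kb. Taking the same number of peaks from each list gave a share of 19.57%, 26.31% within 1 kb and 22.49% with a nearest ALP region of the same kind. A distance of 5 kb in place of 1 kb took in 60.56%. The TCF1 share was 0.5689% with the TCF1 summit inside the region and 2.345% with a TCF1 peak within 500 bp. Both settings that follow were added once the data had been seen. The members whose lower 95% Poisson limit of the pileup was at or above the tags needed in both later lists numbered 1662, with a median of 15 tags and a TCF1 share of 1.023%, and a TCF1 summit within 250 bp of the ALP summit was found in 0.9913%. Counting ALP peaks as units, a −log10 q of at least 2 and autosomes alone moved no value past these limits. No paired analysis was possible because each stage has 1 pooled list, and for the same reason no replicate could be left out. At the lowest background a call needed 5 tags in each list, so counting error is largest, relative to the pileup, at the weakest members.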

Other observations

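Among 1651 windows of 1 Mb with 10 or more ALP regions, 4 had at least 50% of them called in ALP alone, and 45 held no such region. A local background over 4 tags was found at 21 members (0.181%), among them the fourth by pileup. The 95th percentile of the local background was 2.06 tags in members and 2.57 in the other ALP regions.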
